A study of Mus musculus with 4 samples.

Results

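Genes of glycolysis and of the transcriptional response to low oxygen were followed in mouse embryonic germ cells with and without disruption of Max. The list held 35 genes of known roles, and it was chosen with earlier results of these data known. Of these, 32 were measured as 1 gene, among 30738 genes that could be named in all. The other 3, Gapdh, Gpi1 and Eno1, had no transcript cluster named for that gene alone. In short, no measured gene of the list differed 2-fold between germ cells with and without the CreERT2 transgene in either sex. Within that limit, 10 targets of the hypoxia-inducible factor (HIF), grouped outside glycolysis, transport and pyruvate metabolism, lay mostly above 0 in both sexes. Their median log2 difference was 0.41 in females and 0.47 in males, whereas 23 further HIF targets had medians of 0.01 and 0.11. Of listed HIF targets grouped elsewhere by role, Pdk1 differed by −0.20 in females and −0.22 in males, Pdk3 by 0.25 and −0.01, and Slc16a3 by 0.41 and 0.22. The enzymes of glycolysis itself lay around 0, and the lactate dehydrogenase gene Ldha was higher with the transgene in both sexes.

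The study asked how the expression profile of germ cells changes when the Max gene is disrupted. Each of 4 conditions was hybridised to 1 array. All embryos were C57/BL6 by their label, were homozygous for a floxed Max allele (Max fl/fl), came from mothers given tamoxifen when the embryos were at E8.5, and were taken at E12.5. Female and male germ cells without a CreERT2 transgene are called F and M, and they carried the floxed alleles and the tamoxifen exposure as well. FC and MC are their counterparts with Oct4dPE-CreERT2, in which the distal enhancer of Oct4 drives a recombinase that tamoxifen activates. Germ cells were sorted magnetically by SSEA-1 from gonads freed of the mesonephros, and the number of embryos behind each array is not given in the sources used here. With 1 array per condition the differences between 2 arrays have no replicate check, so they are given without a p-value, and a call means a 2-fold difference.

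MAX is the partner that MYC proteins need to bind DNA at the E-box sequence, and genes of glucose uptake and glycolysis are textbook targets of MYC. Many of the same genes are also induced by HIF, a dimer of an oxygen-labile alpha subunit and ARNT, which binds a short core sequence in hypoxia response elements. Glycolysis converts glucose to pyruvate in a stage that consumes ATP and a stage that yields it, and lactate dehydrogenase converts pyruvate to lactate.

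Max itself read 10.75 in F against 10.31 in FC, and 10.64 in M against 10.33 in MC as deposited log2 signal. It was lower with CreERT2 by a log2 difference of −0.44 in females and −0.31 in males. This is a reading of RNA, and per the paper the part that Cre can remove from the floxed allele is exon V. Immunostaining in the paper, at an earlier stage, put MAX protein at background in most germ cells with CreERT2. Named genes with a signal of 10 to 11 had a median difference of −0.14 (SD 0.453) in females and −0.115 (SD 0.307) in males. Germ cell markers were present on all 4 arrays, with Dazl between 15.25 and 16.57. The sorted cells were not free of others, and the amounts differed between arrays. The log2 of the summed signal of 8 Sertoli cell markers was 8.57 in F against 8.48 in FC, and 11.38 in M against 12.75 in MC. The male sums were led by 1 marker, Cst9, which read 6.21 in F against 4.14 in FC, and 11.12 in M against 12.63 in MC. Of the 8, 5 were higher and 3 lower in FC than in F, and 7 were higher and 1 lower in MC than in M. The same sum over 11 endothelial markers was 11.18, 10.4, 11.42 and 11.32, and 4 of these markers were 2-fold lower in FC than in F. Over 4 platelet and megakaryocyte markers it was 7.76, 7.25, 11.13 and 8.0. Over 8 Leydig and interstitial markers it was 9.16, 8.91, 8.96 and 9.54, with all 8 lower in FC than in F and all 8 higher in MC than in M. Over 8 erythroid markers it was 15.26, 14.69, 14.01 and 12.84, a sum led by the globin gene Hbb-y. Hbb-y was 2-fold lower in MC than in M, by a log2 difference of −1.22. Of the 8 markers, however, 6 were higher in MC than in M and 2 lower, and in FC against F 4 were higher and 4 lower. Over 8 leukocyte markers it was 8.02, 7.76, 7.75 and 8.15, with 7 of 8 lower in FC than in F and 7 of 8 higher in MC than in M. Over 7 pregranulosa markers it was 8.24, 8.33, 7.97 and 8.07, with 6 higher with CreERT2 in both sexes and 1 lower in both. Y-linked genes summed to 9.99 in F against 6.92 in FC, 12.9 in M and 13.34 in MC, so the array labelled F held Y-linked signal above that of FC. The part of these cells in the differences was not tested. The male differences do not use F, and the female ones cannot be had without it. In such bulk samples fewer cells of a type and less RNA per cell cannot be told apart.

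Stretches of promoter are shown for genes that the results turn on, with the E-box and the HIF core in capitals. The E-box searched was CACGTG, which reads the same on both strands. The HIF core searched was ACGTG on either strand, left out where it lies inside a CACGTG, so that on the strand shown it can appear as CACGT. The windows ran from 250 bases before to 50 bases after each start site of RefSeq on GRCm38.p6, and the sequences are read 5′ to 3′ on the strand of the gene. Ldha (chr7:46845644-46845783, plus strand) held 2 E-boxes, starting 145 and 48 bases before the start site, and a HIF core 34 bases before it. Ankrd37 (chr8:45999851-45999885, minus strand), P4ha1 (chr10:59323246-59323295, plus strand), Egln3 (chr12:54204075-54204124, minus strand) and Slc2a1 (chr4:119108685-119108734, plus strand) held a HIF core and no E-box in the stretch shown. Bnip3 (chr7:138909587-138909636, minus strand) is shown as the HIF target with an E-box, 108 bases before its start site. That E-box itself contains ACGTG, which the rule above did not count as a HIF core, and the window held no other.
Ldha: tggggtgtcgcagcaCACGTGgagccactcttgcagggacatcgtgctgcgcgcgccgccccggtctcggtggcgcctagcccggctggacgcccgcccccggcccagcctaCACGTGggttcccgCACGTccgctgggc
Ankrd37: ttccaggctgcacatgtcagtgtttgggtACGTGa
P4ha1: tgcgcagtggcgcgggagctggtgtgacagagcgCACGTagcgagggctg
Egln3: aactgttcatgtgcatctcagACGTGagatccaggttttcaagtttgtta
Slc2a1: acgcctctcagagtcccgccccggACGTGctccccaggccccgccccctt
Bnip3: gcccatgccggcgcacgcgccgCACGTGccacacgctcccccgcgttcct

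Windows were found for 30 of the 32 measured genes, 42 windows in all. A HIF core lay in 54.8% of those windows against 13.6% of all 32851 windows, and an E-box in 11.9% against 7.15%. The list was chosen in part for known response to HIF, so the first share describes the list and is no independent finding. By gene, 21 of the 30 had a HIF core and 5 had an E-box (Ldha, Slc16a1, Bnip3, Pfkm and Pfkfb3). The 7 genes that lay above genes of like signal in males, named in the paragraphs that follow, held a HIF core in 5 cases and an E-box in 1, and the other 23 held a HIF core in 16 cases and an E-box in 4. A match is a description of the letters, not a bound site.

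Across the list, 24 of 32 genes were above 0 for FC minus F and 8 were below, where 47.5% of all named genes were above and 50.1% below. For MC minus M, 21 were above, 10 below and 1 at 0, where 50.6% of all named genes were above and 47.3% below. In both sexes 17 genes were above 0 (26.8% of all named genes) and 4 were below (26.6%). The median log2 difference of the list was 0.13 in females and 0.05 in males, and that of all named genes was −0.01 and 0.01. None of the 32 reached 2-fold higher or lower. For all named genes these calls made up 0.547% higher and 0.508% lower in FC against F, and 0.224% higher and 0.475% lower in MC against M. At 1.5-fold, 2 were higher in FC (1.99% of all named genes) and none lower (2.81%), and 4 were higher in MC (1.56%) and 1 lower (2.68%).

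Named genes with a signal of 8 to 9 had a median difference of −0.11 in females and −0.12 in males, so each gene was also placed among the 500 named genes nearest to it in mean signal. Genes at the signal of the list leaned below 0, so the list stood higher by this measure, at a median percentile of 77.3 in females and 72.9 in males. In males 7 of 32 lay in the upper 2.5% of their neighbours, namely Pfkp, Ldha, Vegfa, Egln3, Ankrd37, P4ha1 and Adm, against 2.6% of all named genes. After quantile normalisation 4 did (Vegfa, Egln3, Ankrd37 and P4ha1). In females 0 of 32 did (2.64%), and in neither sex did any lie in the lower 2.5%. Adm, Ldha and Pfkp stood at the edge, at 0.61 with the edge at 0.61, at 0.54 with the edge at 0.53 and at 0.53 with the edge at 0.52, and Slc2a1 lay just inside, at 0.55 with its edge at 0.59. No difference between the sexes could be tested.

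**Figure D1:**
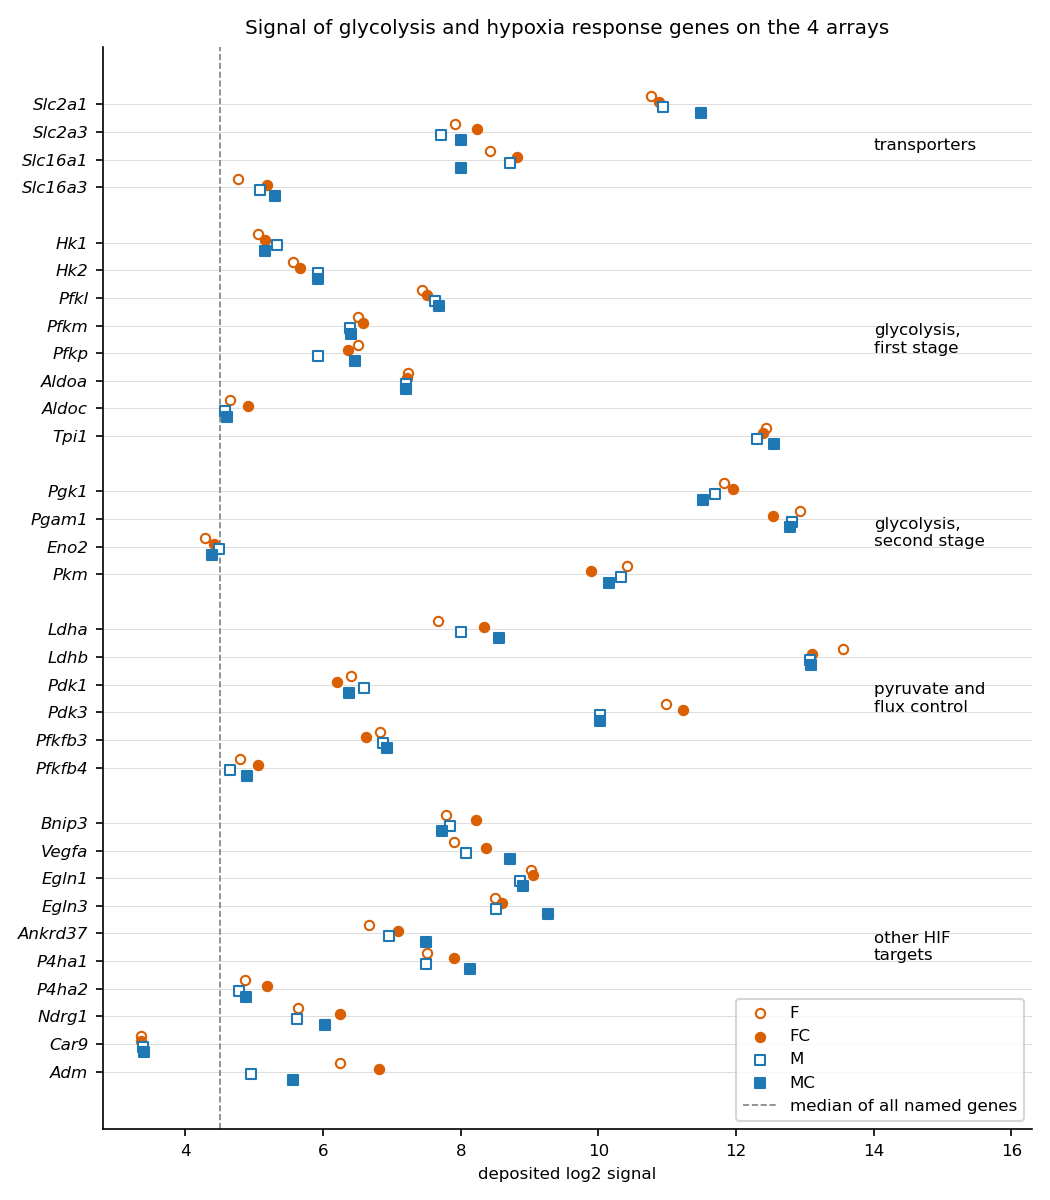
Deposited log2 signal (horizontal axis) of the 32 measured genes on the 4 arrays, 1 point an array, open for F and M and filled for FC and MC, grouped by role. The dashed line is the median signal of all named genes, 4.5, and the points of a gene are set apart vertically only to be seen. Signals of different genes come from different probes and are not compared.

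Among the transporters, the 4 genes had a median log2 difference of 0.35 in females and 0.26 in males. Slc2a1, the basal glucose transporter GLUT1, read 10.76 in F against 10.88 in FC, and 10.94 in M against 11.49 in MC. MC was the highest array and the other 3 lay close together, and the log2 difference was 0.12 in females and 0.55 in males. Slc2a3, the high-affinity glucose transporter GLUT3, read 7.91 in F against 8.23 in FC, and 7.71 in M against 8.01 in MC, so both arrays with CreERT2 lay above both without it. Slc16a1 encodes the monocarboxylate transporter MCT1, which carries lactate and pyruvate. It read 8.43 in F against 8.81 in FC, and 8.72 in M against 8.01 in MC. Its differences went opposite ways, 0.38 in females and −0.71 in males, and the latter was at the 5.6th percentile of like-signal genes. Slc16a3, the lactate exporter MCT4 and a HIF target, read 4.77 in F against 5.18 in FC, and 5.08 in M against 5.30 in MC, higher with CreERT2 by 0.41 and 0.22.

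The first stage of glycolysis, from hexokinase to triose phosphate isomerase, was represented by 8 genes with a median log2 difference of 0.08 in females and 0.02 in males. The hexokinases Hk1 and Hk2, which trap glucose as its phosphate, differed by 0.10 and 0.11 in females and by −0.17 and 0.00 in males. Phosphofructokinase is the committed step, and its liver and muscle forms Pfkl and Pfkm stayed within 0.08 of 0 in both sexes. The platelet form Pfkp read 6.51 in F against 6.36 in FC, and 5.93 in M against 6.46 in MC. M was the low array, and the difference was −0.15 in females and 0.53 in males, where it lay at the 97.6th percentile of its neighbours. The aldolase Aldoa, which splits the 6-carbon sugar, read 7.23, 7.22, 7.21 and 7.2 in F, FC, M and MC, nearly the same on all 4 arrays. Aldoc differed by 0.26 and 0.03. Tpi1, which interconverts the triose phosphates, read 12.43 in F against 12.39 in FC, and 12.31 in M against 12.55 in MC, with differences of −0.04 and 0.24.

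In the second stage, which yields ATP, 4 genes had a median of −0.13 in both sexes. Pgam1, a phosphoglycerate mutase, read 12.93 in F against 12.54 in FC, and 12.81 in M against 12.78 in MC, so FC was the low array and the difference was −0.39 in females and −0.03 in males. Pkm, the pyruvate kinase that makes the last ATP of the pathway, read 10.41 in F against 9.89 in FC, and 10.33 in M against 10.16 in MC. It was lower with CreERT2 in both sexes, by −0.52 and −0.17, within the range of like-signal genes at the 13.5th and 46.9th percentile. Eno2, an enolase, lay below the median signal of all genes and differed by 0.13 and −0.09. Pgk1, a phosphoglycerate kinase, read 11.83 in F against 11.96 in FC, and 11.70 in M against 11.52 in MC from the cluster of highest mean. The ID of that cluster carries chromosome 12, while the gene is on X, and the cluster with the X chromosome read 10.77, 10.85, 10.53 and 10.48, so both gave a small positive female and a small negative male difference. Gapdh had only clusters shared with a pseudogene or a gene model, of which 1 read 16.69, 16.75, 16.69 and 16.78 and another 18.94, 18.69, 18.81 and 18.94 in F, FC, M and MC. Such shared clusters cannot be given to Gapdh. Over both stages, the 12 measured enzymes of 15 listed had a median of 0.08 in females and −0.01 in males.

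Of 6 genes at the fate of pyruvate and the control of flux, Ldha had the widest difference in each sex. It encodes the lactate dehydrogenase subunit that favours lactate formation, and it read 7.67 in F against 8.34 in FC, and 8.01 in M against 8.55 in MC. Both arrays with CreERT2 lay above both without it. The log2 difference was 0.67 in females, at the 96.2nd percentile of like-signal genes, and 0.54 in males, just inside the upper 2.5%. Ldhb, the subunit that favours pyruvate formation, read 13.55 in F against 13.10 in FC, and 13.08 in M against 13.09 in MC, with F alone high and differences of −0.45 and 0.01. Pdk1 and Pdk3 are kinases that switch off pyruvate dehydrogenase, and both are known HIF targets. Pdk1 was lower by −0.20 in females and −0.22 in males. Pdk3 read 10.98 in F against 11.23 in FC, and 10.03 in M against 10.02 in MC, low in both male arrays, and with CreERT2 it differed by 0.25 and −0.01. Pfkfb3 and Pfkfb4 set the level of fructose 2,6-bisphosphate, the activator of phosphofructokinase. Pfkfb3 differed by −0.20 and 0.06, and Pfkfb4 by 0.26 in each sex.

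**Figure D2:**
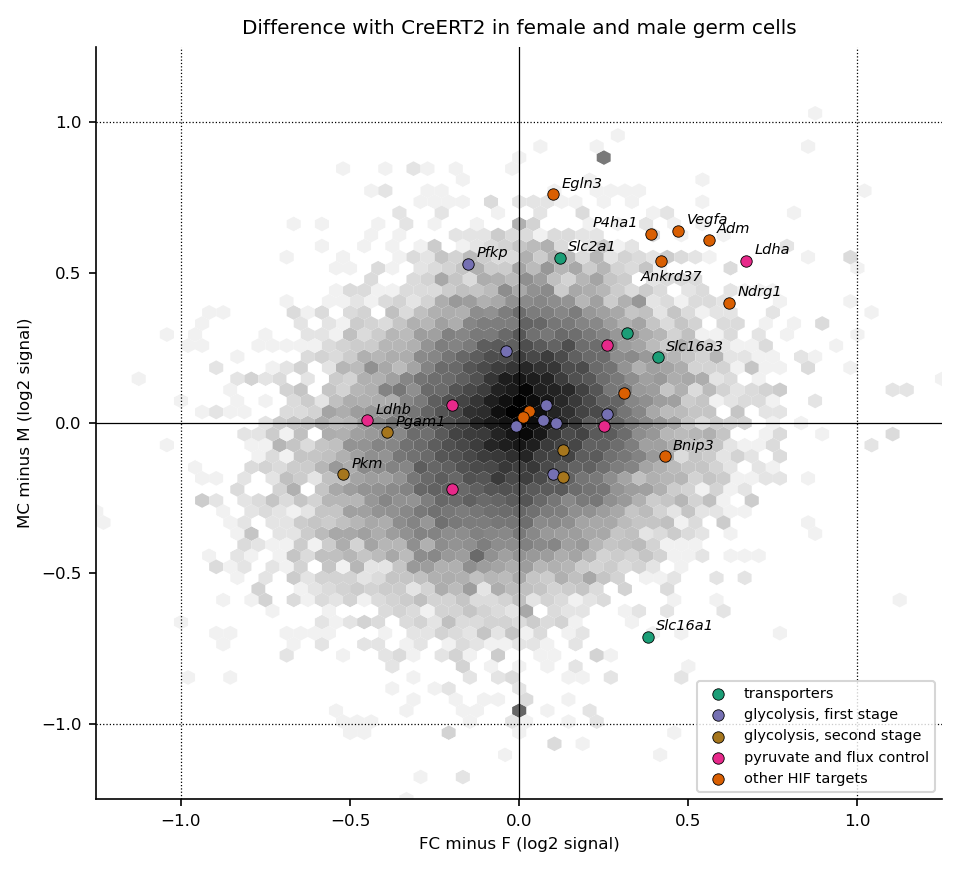
Log2 difference FC minus F (horizontal axis) against MC minus M (vertical axis) for the 32 genes, coloured by role, over the density of all named genes in grey (darker is more genes). Dotted lines mark 2-fold. No coloured point passes them, and Ldha, Vegfa, Adm, P4ha1, Ankrd37 and Ndrg1 lie at the upper right, higher with CreERT2 in both sexes, while Slc16a1 lies at the lower right.

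The 10 HIF targets grouped outside glycolysis, transport and pyruvate metabolism were above 0 in 10 of 10 cases in females and in 9 of 10 in males. Named genes of like signal were above 0 in 41.3% and 39.2% on average. The median log2 difference of the 10 was 0.41 and 0.47, and their median percentile among like-signal genes 91.9 and 95.9. Vegfa, the angiogenic growth factor, read 7.90 in F against 8.37 in FC, and 8.08 in M against 8.72 in MC. Its difference was 0.47 in females and 0.64 in males, and both arrays with CreERT2 exceeded both without it. Adm encodes the vasodilator peptide adrenomedullin, and it read 6.25 in F against 6.81 in FC, and 4.95 in M against 5.56 in MC. The difference with CreERT2 was of like size in both sexes, 0.56 and 0.61, while both male arrays lay below both female arrays.

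P4ha1, a prolyl hydroxylase subunit that modifies collagen, read 7.51 in F against 7.90 in FC, and 7.50 in M against 8.13 in MC. The 2 arrays without CreERT2 were alike and both with it were higher, by 0.39 and 0.63. Its relative P4ha2 differed by 0.31 and 0.10. Ankrd37, an ankyrin repeat gene induced by HIF, read 6.67 in F against 7.09 in FC, and 6.95 in M against 7.49 in MC, with differences of 0.42 and 0.54. Ndrg1, a gene of the stress and differentiation response, read 5.63 in F against 6.25 in FC, and 5.62 in M against 6.02 in MC. It too had both control arrays alike and differences of 0.62 and 0.40, at the 97.2nd and 94.2nd percentile.

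Egln3 and Egln1 encode oxygen-sensing hydroxylases that mark HIF alpha subunits for destruction and are themselves HIF targets. Egln3 read 8.5 in F against 8.60 in FC, and 8.51 in M against 9.27 in MC. MC stood alone above the other 3 arrays, with a difference of 0.76 in males, at the 99.2nd percentile, against 0.10 in females. Egln1 read 9.02, 9.05, 8.86 and 8.90 in F, FC, M and MC, within 0.04 of its control in both sexes. Bnip3, a mitophagy receptor, read 7.79 in F against 8.22 in FC, and 7.84 in M against 7.73 in MC. FC was the high array, with a difference of 0.43 in females and −0.11 in males. Car9, the carbonic anhydrase that is a standard marker of hypoxic tissue, read 3.35, 3.36, 3.38 and 3.40, under the median signal of all genes on all 4 arrays. MC, the array with the highest Vegfa, Ankrd37, P4ha1 and Egln3, was also the one with the highest Sertoli, interstitial and leukocyte marker sums. The Sertoli sum was led by Cst9, and the part of those cells was not tested.

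**Figure D3:**
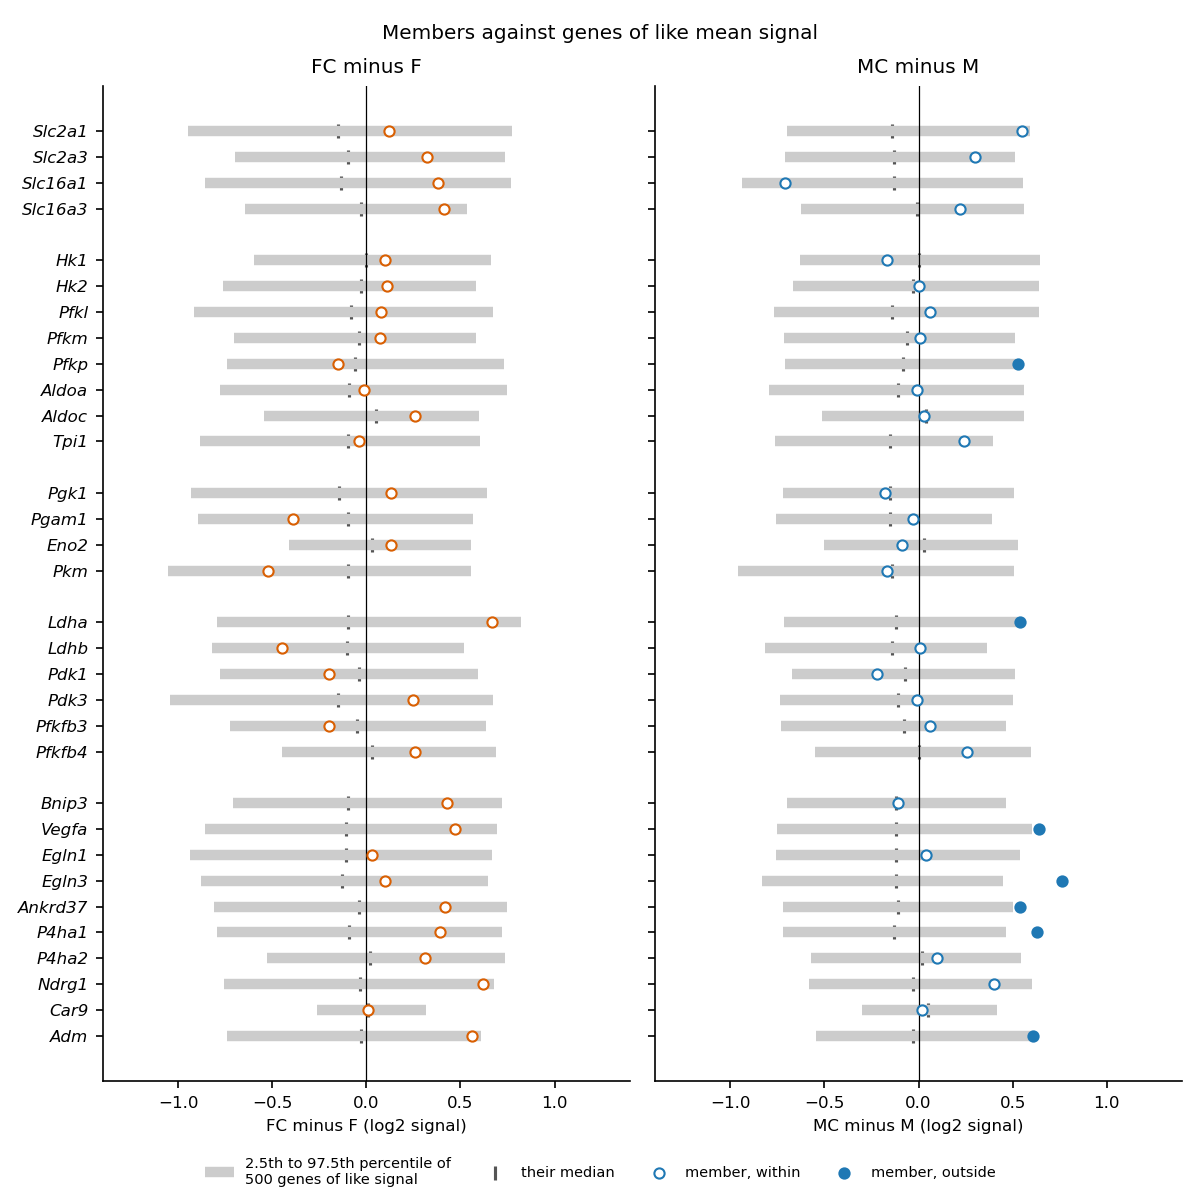
Log2 difference of each of the 32 genes (points) in females (left, FC minus F) and males (right, MC minus M), beside the range (bars, without the lower and upper 2.5%) and median (ticks) of the 500 named genes nearest in mean signal. Filled points lie past the range: there are 7 in males, all above, and none in females.

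The test the design allows is a limma fit of the 4 arrays with CreERT2 and sex as terms, which has 1 residual degree of freedom. It called 0 of the 32 genes for CreERT2 after Benjamini-Hochberg adjustment over all named genes, and 0% of all named genes. At an unadjusted p under 0.05 it held 7 of the 32 (Slc2a3, Ldha, Vegfa, Ankrd37, P4ha1, Ndrg1 and Adm), where 7.3% of all named genes passed. Those 7 were also the genes at least 0.3 above 0 in both sexes, which held for 1.6% of all named genes. Ldha had a common log2 difference of 0.61 ± 0.09 (SE) and Adm of 0.59 ± 0.08 (SE), and limma's lowest adjusted p among the 32 was 0.663. The SE comes from how far the differences of the sexes lay apart, moderated over all genes, and not from replicate arrays. The fit assumes the same difference in both sexes, so genes with opposite signs, 10 of the 32, are not described by it.

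Between the sexes, Adm was the gene 2-fold apart in M against F, lower by a log2 difference of −1.3, and Adm and Pdk3 were 2-fold apart in MC against FC. None was 2-fold higher in males. Of all named genes, 0.605% were 2-fold lower and 0.729% higher in M than in F, and 1.42% lower and 0.979% higher in MC than in FC. Over all 4 arrays the male minus female difference was −1.28 for Adm and −1.08 for Pdk3, each with a limma adjusted p of 0.326. The fit for sex called 0 of the 32 after adjustment and 4 at an unadjusted p under 0.05 (Hk2, Pdk3, Ankrd37 and Adm), and 0% and 13.4% of all named genes. The Y-linked signal in F bears on the F side of these comparisons, and its part was not tested.

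Other genes of the same pathways were read from lists of 90 genes, 79 of them measured. Of 23 further HIF targets, 12 were above 0 and 10 below in females, with a median of 0.01. In males 16 were above and 7 below, with a median of 0.11. Of all named genes, 47.5% were above 0 in females and 50.6% in males. The medians of the 23 lay closer to 0 than those of the 10 targets above. Unlike the 10, the 23 were not ranked among genes of like signal, and the difference between the lists was not tested. Among the 23, Fam162a, a mitochondrial HIF target, read 13.57 in F against 12.97 in FC, and 13.59 in M against 12.93 in MC, lower with CreERT2 in both sexes. The oxygen-sensing list of 8 had medians of 0.05 and 0.09. Hif1a, an oxygen-labile alpha subunit, read 10.04 in F against 10.17 in FC, and 9.87 in M against 10.13 in MC. Arnt, its partner, read 7.11, 6.93, 7.07 and 7.13 in F, FC, M and MC. Epas1, another HIF alpha subunit, was lower with CreERT2 in females by a log2 difference of −0.95, the lowest of this list. In males Epas1 differed by 0.01, and the cause of its female difference was not tested. The 23 measured of 27 other genes of glycolysis and gluconeogenesis had medians of 0.07 and 0.05. In the pentose phosphate list the medians were 0.16 and −0.05 over 8 genes, and 1 gene stood apart. Tktl1, a transketolase-like gene, read 5.33 in F against 8.80 in FC, and 4.70 in M against 6.38 in MC, and its log2 differences of 3.47 and 1.68 were the ones past 2-fold among the 79.

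**Figure D4:**
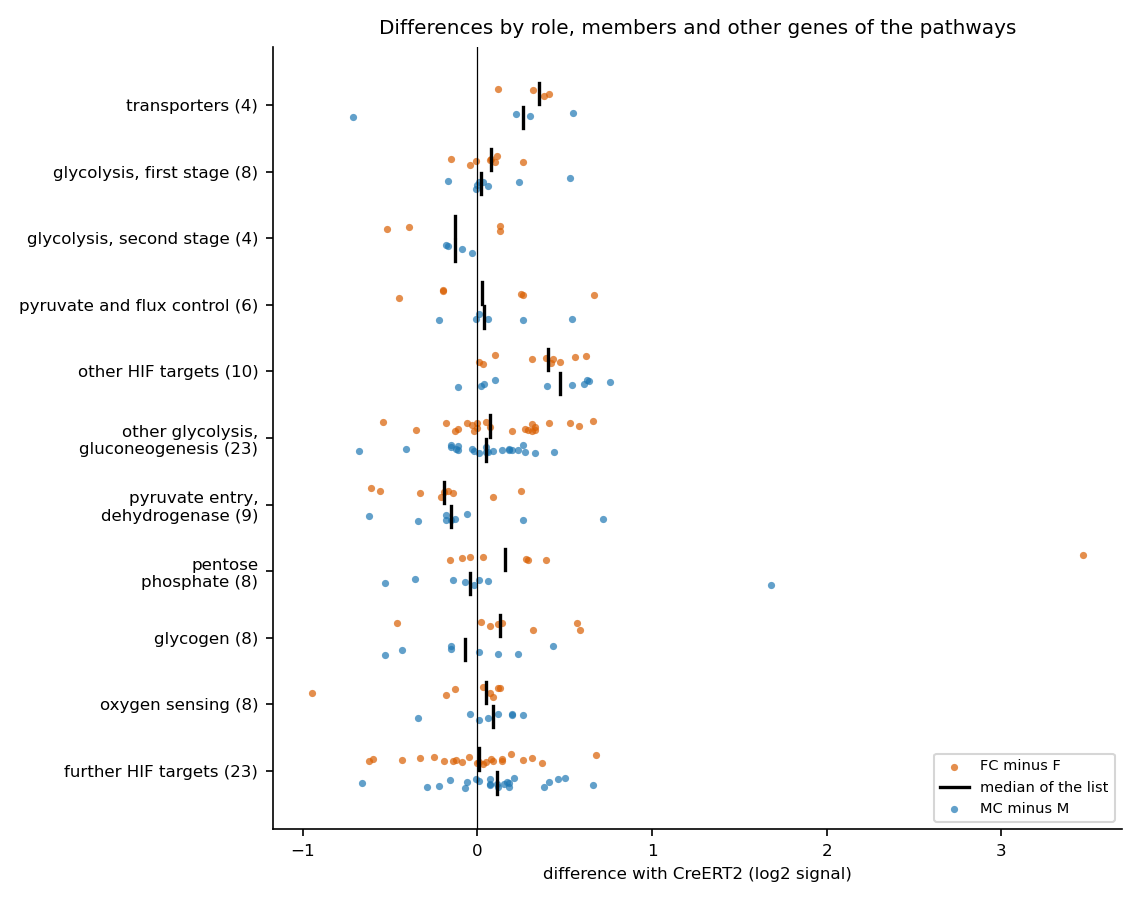
Log2 differences FC minus F (orange) and MC minus M (blue) of single genes, by list, with the number measured in brackets and the median of each list as a black bar. The upper 5 lists are the 32 genes of glycolysis and the hypoxia response, the lower 6 the other genes of the pathways, and the point far to the right is Tktl1.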

How the data were processed

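RNA of magnetically sorted germ cells was measured on 1 Affymetrix array for each of 4 conditions. The deposited values are log2 signals of 65956 transcript clusters. Per the study's Methods the authors subtracted background and normalised by robust multiarray analysis on a 3′ expression array, while the labels name the Affymetrix WT Plus kit and the Transcriptome Analysis Console, and the IDs are those of transcript clusters. The software behind the table is therefore not settled. The log2 values, from 2.29 to 19.85 with array medians of 3.91 to 4.05, were used as deposited.

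Clusters were named through the platform annotation: 30638 had 1 symbol, 654 had several symbols of 1 gene, 1522 had several genes and stayed unnamed, and 33142 were not listed. A gene was read from its cluster of highest mean. Of 31287 named clusters with a chromosome in both tables, 99% carried the gene's chromosome in the ID. Differences were taken within sex. Each gene was ranked among the 500 named genes nearest in mean signal, with the listed genes left out. limma 3.58.1 in R 4.3.3 fitted CreERT2 and sex additively, with a two-sided test, Benjamini-Hochberg adjustment over all 30738 genes and a threshold of 0.05. The fit and the ranks were tested on simulated data. The number of arrays limits the precision.

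Values on all 4 arrays are given for genes 1.5-fold apart or in the upper or lower 2.5% of their neighbours in either sex, and for leading genes of each role. Further genes shown with 4 values, Fam162a, Epas1 and the sequences printed, were chosen after their values were seen. The members, lists and tests were chosen with earlier results of these data known. Alternatives were 3 other normalisations, the mean of a gene's clusters, a filter at the median signal, a 1.5-fold threshold, windows of 200 and 1000 genes, a trended prior and a fit without the sex term. A window of protein-coding genes and the X cluster of Pgk1 were added after seeing the data. The alternative settings for the 10 HIF targets and for the sex difference were not planned either.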

Additional observations from a re-analysis of the deposited data

Results flagged for a closer look

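In 5 genes the array with CreERT2 lay above its control in one sex and below it in the other by at least 0.1 each, so the log2 differences of the sexes had opposite signs. For Slc16a1, FC minus F exceeded MC minus M by 1.09. For Bnip3 the gap was 0.54, for Pgk1 0.31 and for Hk1 0.27, each with the female difference the higher. For Pfkp the male difference was the higher, with a gap of −0.68. These gaps were not tested, since each sex has 1 array with and 1 without CreERT2.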

How the results depend on the processing

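No gene of the list reached 2-fold under any other normalisation, the mean of a gene's clusters or the filter on signal. At 1.5-fold the counts were 2 higher in FC, and 4 higher and 1 lower in MC, against 0 each at 2-fold. The median difference of the list was 0.238 in females after cyclic loess, against 0.125 as deposited, and 0.182 in males after quantile normalisation, against 0.05. After median centring it was 0.095 in females and 0.0 in males. With 200 neighbours in signal, 1 gene (Ndrg1) lay above them in females, against 0. In males 4 genes did so after quantile normalisation (Vegfa, Egln3, Ankrd37 and P4ha1) and 5 with 200 neighbours, against 7. With protein-coding neighbours 8 genes lay above, and 1 gene (Slc16a1) lay below, against 0. Slc2a1 lay above with the mean of a gene's clusters, with 1000 neighbours and with protein-coding neighbours. Pfkp, Ldha, Adm and Slc2a1 thus depended on the setting. The cause of these shifts was not tested. Signs of single differences held in 55 of 64 cases after quantile normalisation, 56 after median centring and 55 after loess. The median of the 10 HIF targets ranged from 0.375 to 0.495 in females and from 0.42 to 0.561 in males, with 8 to 10 and 7 to 9 of the measured ones above 0. Replicates could not be paired, since each condition has 1 array. Sex was a term of the limma fit, and without it the fit also called 0 of the 32 genes.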

Other observations

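Of 9 genes that bring pyruvate into the mitochondrion and oxidise it, 7 were below 0 in each sex and 6 in both, with medians of −0.19 and −0.15. Of all named genes, 50.1% were below 0 in females, 47.3% in males and 26.6% in both, and genes with a signal of 8 to 9 had medians of −0.11 and −0.12. Dld, the E3 subunit shared by several dehydrogenase complexes, read 9.84 in F against 9.23 in FC, and 9.64 in M against 9.49 in MC. Pdp1, the phosphatase that reactivates pyruvate dehydrogenase, read 9.17, 8.96, 8.98 and 8.36. Pdhb, the E1 beta subunit, read 12.38, 11.82, 11.38 and 12.10, lower with CreERT2 in females and higher in males. Of 8 glycogen genes, 7 were above 0 in females and 4 in males, with medians of 0.13 and −0.07, where 47.5% and 50.6% of all named genes were above 0. Of the forms of glycolytic enzymes known from later spermatogenesis, Pgk2 and Gapdhs lay under the median signal of all named genes, 4.5, on all 4 arrays, and Ldhc under it in M alone. Pgk2 read 2.94, 3.14, 3.05 and 3.49, Gapdhs 3.59, 3.66, 3.59 and 3.64, and Ldhc 4.68, 4.95, 4.44 and 4.58, in F, FC, M and MC. No test was run on these lists.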
